A study of Mus musculus with 8 samples.

Results

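The FGF and EGF families of growth factors and their receptors were examined in 10 cell types of the iris of the mouse. The members were chosen by gene symbol, without reference to their levels: all numbered *Fgf* genes, *Fgfr1* to *Fgfr4*, *Nrg1* to *Nrg4*, *Erbb2* to *Erbb4*, *Egf*, *Egfr*, *Hbegf*, *Areg*, *Ereg*, *Btc*, *Tgfa* and *Epgn*. Of the 22873 genes counted, 35 matched, of which 8 code for receptors and 27 for ligands or intracellular FGFs. *Fgf3*, *Fgf6*, *Fgf8*, *Fgf15*, *Fgf21* and *Ereg* were not analysed here.

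Both families signal through receptor tyrosine kinases. Most secreted FGFs bind heparan sulfate and pair with FGFR1 to FGFR4, whereas FGF11 to FGF14 stay inside the cell and bind the tails of voltage-gated sodium channels. EGF family ligands are made as membrane precursors that are shed by metalloproteases. They bind EGFR (EGF, TGFA, HBEGF, AREG, BTC and EPGN) or ERBB3 and ERBB4 (the neuregulins), and ERBB2, which has no ligand of its own, is the shared partner. FGF and EGF signals act on lens, retina and pigment epithelium in the developing eye, and both end in the Ras-ERK cascade.

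Nuclei were profiled by snRNAseq in 8 libraries made from irises, some of which carried pieces of ciliary body along. All mice were WT females of 6 to 8 weeks, on an albino background, and each library pooled 5 or 6 irises. The 3 untreated libraries came from mice without eye drops. The 3 constricted libraries came from mice given 5% pilocarpine, a muscarinic agonist, every hour for 6 hours in the light. The 2 dilated libraries came from mice given 5% phenylephrine, an alpha-adrenergic agonist, with 1% cyclopentolate, a muscarinic antagonist, on the same schedule in the dark, and irises were taken 30 min after the last dose. Drug and light therefore cannot be told apart. The authors assigned each nucleus to 1 of 10 cell types: dilator muscle, sphincter 1 and sphincter 2 muscle, iris pigment epithelium (iris PE), ciliary body epithelium (CBE), other ciliary body cells (CB), stroma 1, stroma 2, endothelial cells and leukocytes.

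The libraries held 5189437 to 25136427 unique molecular identifiers (UMIs) in 1274 to 7321 nuclei. Levels are given in CPM, a gene's UMIs in all nuclei of a cell type in a library per 1000000 UMIs of these nuclei, as mean ± SD over libraries. Of 28 markers, 20 were highest in the cell type they mark and 27 ranked among its 3 highest cell types; for CB no markers were checked. CB and CBE nuclei made up 2.86% to 14.9% of a library, the most in dilated replicate 1. Untreated replicate 1 and dilated replicate 1 shared 63 cell barcodes, and the 5 member calls and the 18 calls of list genes named below kept their calls without the nuclei whose barcode occurred in more than 1 library. The methods of the study describe the libraries of a condition as independent biological replicates. Its processing batches and sequencing runs are not tied to libraries by the labels, and the series of library numbers in the titles was used in their place.

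*Fgfr2* and *Fgfr1* were the FGF receptors with most UMIs in the untreated iris. *Fgfr2* was found in all cell types, from 530 ± 16.5 CPM in stroma 1 to 2183 ± 163 CPM in sphincter 2 (SD, n = 3). Dilator muscle (1856 ± 11.7 CPM), CBE (1737 ± 288 CPM), iris PE (1727 ± 181 CPM) and sphincter 1 (1714 ± 106 CPM) followed, and neighbours among these 4 did not differ beyond their spread. The annotation limits what this level means. In GENCODE vM21 (mm10) *Fgfr2* runs over 2960.9 kb of chromosome 7 (130162451 to 133123350, minus strand), against 104.358 kb in RefSeq. Of the 14 protein-coding genes on its strand in that interval 1 was counted, against 14 of the 16 on the other strand. The *Fgfr2* count may therefore hold reads of the neighbours, which was not tested.

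*Fgfr1* was highest in stroma 2, at 425, 419 and 419 CPM in the 3 untreated libraries. CBE (309 ± 56.0 CPM) and iris PE (286 ± 47.6 CPM) came next and did not differ beyond their spread, and the lowest level was 32.1 ± 28.2 CPM in leukocytes. *Fgfr3* was also highest in stroma 2, at 50.8, 79.1 and 69.1 CPM. Endothelial cells held 22.4 ± 5.53 CPM of *Fgfr3*, and in sphincter 2 no UMI was counted, which allows a level of up to 2.37 CPM (3 counts, counting error only). *Fgfr4* was low, with its highest level of 14.0 ± 2.84 CPM in sphincter 1 (29 UMIs) and 5.70 ± 1.40 CPM in stroma 2. Thus stroma 2 ranked first for *Fgfr1* and *Fgfr3* and second for *Fgfr4*.

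Of the EGF receptor family, *Erbb4*, a neuregulin receptor, and *Egfr* had the most UMIs. *Erbb4* was highest in CBE, at 822, 758 and 809 CPM. Stroma 1 (525 ± 77.0 CPM) and iris PE (492 ± 46.9 CPM) did not differ beyond their spread, CB held 317 ± 55.0 CPM, and stroma 2 the least (20.8 ± 10.4 CPM). *Egfr* was likewise highest in CBE (123 ± 33.9 CPM), followed by iris PE (73.3 ± 13.3 CPM) and CB (68.7 ± 1.03 CPM). Stroma 2 held 42.5 ± 4.56 CPM of *Egfr*, dilator muscle 9.95 ± 2.20 CPM and stroma 1 3.63 ± 2.27 CPM. The epithelial layers and CB were therefore high in both receptors, and stroma 1 in *Erbb4* but not in *Egfr*.

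*Erbb3*, which has a weak kinase and signals through a partner, was highest in stroma 1, at 61.0, 58.6 and 63.5 CPM, 10.8 times the level in CBE (5.64 ± 5.36 CPM). Stroma 1 is also the cell type with the highest *Sox10*, *Mitf* and *Ednrb*, which mark the melanocyte lineage. The summed level of 5 Schwann cell markers in untreated stroma 1 was 111 to 133 CPM. It was 24.1 to 34.3 CPM in dilator muscle, 28.0 to 36.8 CPM in iris PE, 35.1 to 43.0 CPM in sphincter 1 and 36.3 to 40.8 CPM in stroma 2. The part of Schwann cells in the *Erbb3* level was not tested. *Erbb2*, the shared partner, was at 1.74 to 11.0 CPM in all cell types. Its highest mean, in leukocytes, rests on 1 UMI, and stroma 2 came next with 9.62 ± 1.51 CPM.

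Among the ligands, *Fgf1*, which binds all FGF receptors, was concentrated in stroma 1. It was at 447, 485 and 474 CPM there, 5.94 times the level in CBE (78.8 ± 18.2 CPM), and at 3.08 ± 1.52 CPM in dilator muscle. *Fgf7*, a ligand made by mesenchymal cells for FGFR2 of epithelia, was highest in stroma 1 as well (24.4 ± 2.39 CPM, against 3.58 ± 6.21 CPM in sphincter 1). *Fgf2* stayed at or below 25.0 ± 13.3 CPM, in sphincter 1, which did not differ from stroma 2 (24.9 ± 10.1 CPM) beyond its spread.

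Of the intracellular FGFs, *Fgf13* and *Fgf12* were highest in muscle or pigment epithelium and *Fgf14* and *Fgf11* in stroma 2. *Fgf13* was highest in sphincter 2 (638 ± 127 CPM) and sphincter 1 (576 ± 111 CPM), which did not differ beyond their spread, against 167 ± 12.8 CPM in dilator muscle. *Fgf12* was highest in iris PE (466 ± 14.6 CPM) and dilator muscle (406 ± 15.0 CPM). *Fgf14* was highest in stroma 2, at 104, 91.0 and 56.9 CPM. *Fgf11* reached 12.5 ± 2.82 CPM, in stroma 2, which did not differ from iris PE (10.2 ± 3.52 CPM) beyond its spread.

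*Nrg1* was the most evenly spread ligand of those named, between 68.4 CPM in leukocytes and 128 ± 26.7 CPM in sphincter 2. *Nrg2* was highest in leukocytes, at 331, 182 and 142 CPM, with 75.8 ± 17.8 CPM in stroma 1. *Nrg3* was below 26 CPM in all cell types, and its highest mean was 25.3 ± 18.1 CPM in CBE. *Hbegf*, a ligand of EGFR and ERBB4, was highest in endothelial cells (28.9 ± 13.5 CPM, 12 UMIs), sphincter 1 (23.4 ± 8.94 CPM) and stroma 1 (20.0 ± 1.87 CPM). *Tgfa*, a ligand of EGFR, was highest in leukocytes (27.3 ± 7.72 CPM, 12 UMIs) and endothelial cells (16.3 ± 15.8 CPM). Hence the cell types with the highest *Egfr* level, CBE, iris PE and CB, held at most 0.63 CPM of *Tgfa*, and no UMI of it in CB, where 3 counts are 2.61 CPM.

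The remaining ligands, together with *Fgf11* 16 genes, stayed below 20 CPM in all cell types. *Fgf20* and *Btc* were highest in stroma 1 (18.7 ± 5.70 and 16.1 ± 3.58 CPM), *Egf* in dilator muscle (12.1 ± 1.84 CPM) and *Nrg4* in CB (11.4 ± 4.54 CPM). None of these differed from the next cell type beyond its spread. These were iris PE for *Fgf20* (13.7 ± 2.11 CPM) and *Nrg4* (10.6 ± 1.74 CPM), leukocytes for *Btc* (11.0 ± 19.1 CPM) and sphincter 2 for *Egf* (10.8 ± 3.54 CPM). *Fgf4*, *Fgf9*, *Fgf17*, *Fgf18*, *Fgf23*, *Epgn* and *Areg* had 0 to 14 UMIs each among 44449551 untreated UMIs, where 3 counts are 0.0675 CPM. *Areg* was not detected in any untreated library. In dilated replicates 1 and 2 it had 3 and 4 UMIs in dilator muscle and 3 and 2 in iris PE, and 15 UMIs in all 8 libraries, and it did not pass the filter for a test.

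**Figure D1:**
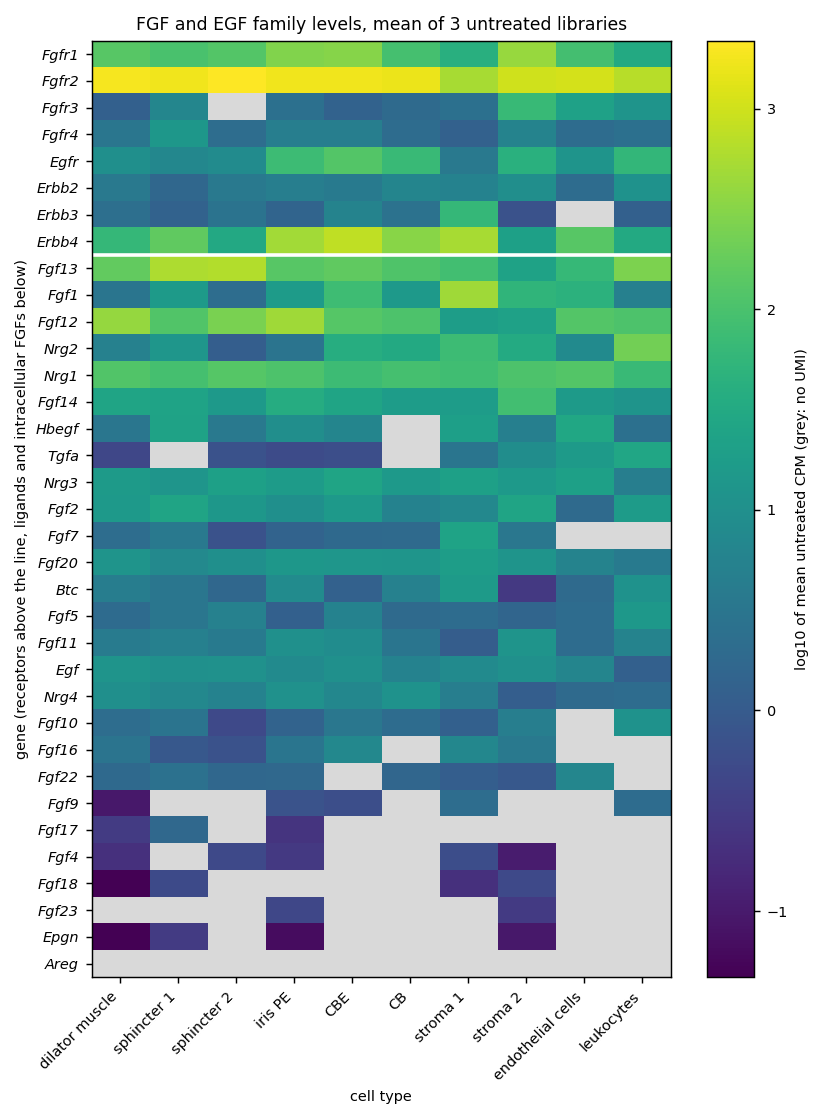
Mean untreated level of all 35 genes (rows) in the 10 cell types (columns), as log10 of CPM over 3 untreated libraries, with cells without a UMI in grey. Colours are to be compared along a row, since genes differ in length. *Fgf1* and *Erbb3* stand out in stroma 1, *Fgf13* in both sphincter clusters, *Nrg2* in leukocytes and *Areg* is grey throughout.

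For *Fgf1*, *Erbb4* and *Erbb3* the share of nuclei with a UMI was compared between a cell type with a high and one with a low level, and had the same order. The share rests on the same UMIs as the level by which the cell types were chosen. Its order is therefore no separate support. *Fgf1* was found in 66.3% of untreated stroma 1 nuclei (median 2691 UMIs) and in 0.987% of dilator nuclei (median 3410 UMIs), or 38.0% and 0.254% after each nucleus was thinned to 1000 UMIs. *Erbb4* was found in 80.2% of CBE nuclei (median 3223 UMIs) and 4.08% of stroma 2 nuclei (median 2425 UMIs), or 51.5% and 1.88% after thinning. *Erbb3* was found in 14.2% of stroma 1 nuclei and 0.230% of stroma 2 nuclei, or 5.23% and 0.137% after thinning.

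Levels of different genes were compared per kb of gene body, because reads from introns were counted. On the GENCODE length *Fgfr1* had the highest level per kb of all members in 6 of 10 cell types, with 6.79 CPM per kb in stroma 2. *Fgf1* was highest in stroma 1 (5.16 CPM per kb), *Hbegf* in endothelial cells and sphincter 1 (2.66 and 2.15 CPM per kb) and *Nrg2* in leukocytes (1.22 CPM per kb). With the RefSeq length, *Fgfr2* was highest in 9 of 10 cell types instead, at 6.61 to 20.9 CPM per kb, and *Fgf1* was still highest in stroma 1.

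The response to pupil dilation was tested with edgeR in each cell type, over all genes that passed its filter on low counts. Of the 35 members, 1 to 26 passed in a cell type, which gave 123 tests. A gene was called where its adjusted p was under 0.05 and its log2 fold change exceeded 0.6 in size. By this measure 5 of the 123 tests (4.07%) gave a change with dilation, against 3.34% of all 85092 gene tests. *Egfr* and *Hbegf* rose and *Nrg4* fell in dilator muscle, *Egfr* rose in stroma 2 and *Erbb4* rose in sphincter 1. The share of members was thus near that of all genes. In the other 7 cell types no member was called. The share of all genes called there was 2.87% in sphincter 2, 1.32% in leukocytes, 1.17% in stroma 1, 0.595% in iris PE, 0.0665% in CB, 0.0122% in CBE and 0% in endothelial cells. Of the 123 tests, 26 had an unadjusted p under 0.05, and DESeq2 called 6. With a block for the library series 16 were called, the 5 among them, and the other 11 included *Nrg1* in iris PE, CBE and stroma 2 and *Erbb4*, higher in CB and lower in dilator muscle and stroma 1. The share of all genes with such a p, or called with this block, is not given here. These counts can therefore not be set against the 3.34%.

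In dilator muscle 3 of 26 members tested were called (11.5%), against 13.3% of all 15395 genes. *Egfr* was at 12.5, 9.01 and 8.38 CPM in untreated, 15.3, 14.2 and 14.7 CPM in constricted and 24.6 and 23.6 CPM in dilated libraries. All 3 conditions were separate, with the dilated libraries highest and the constricted ones in between. The mean dilated CPM was 2.42 times the untreated one, and the edgeR log2 fold change, on TMM-scaled counts, was 1.53 (SE 0.20, adjusted p = 0.000418). This call held in all 15 alternatives. The constricted level was 0.65 higher on the log2 scale (SE 0.20, adjusted p = 1.00, unadjusted p = 0.00660). *Egfr* lies on chromosome 11 (16752203 to 16918158, plus strand) and overlaps *Egfros* on the other strand. The share of dilator nuclei with an *Egfr* UMI was 2.69% untreated and 6.87% dilated, at medians of 3410 and 3758 UMIs, or 0.623% and 2.04% after thinning. In stroma 1, where *Egfr* was lowest, the thinned share was 0.156% untreated and 0.625% dilated. These shares rest on 1, 0 and 1 nuclei in the untreated and 2 and 1 in the dilated libraries.

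*Hbegf*, on chromosome 18 (36504927 to 36515805, minus strand), was at 3.12, 3.80 and 2.53 CPM in untreated, 6.0, 3.55 and 4.03 CPM in constricted and 7.11 and 11.6 CPM in dilated dilator nuclei. Both dilated libraries lay above all others. The log2 fold change was 1.71 (SE 0.38, edgeR adjusted p = 0.00923), on 48 untreated and 130 dilated UMIs. The adjusted p was 0.0583 without untreated replicate 3 and 0.111 without dilated replicate 2, where the log2 fold change was 1.25.

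*Nrg4*, an ERBB4 ligand known as a secreted factor of adipose tissue, was at 13.1, 9.29 and 7.59 CPM in untreated, 4.65, 9.75 and 10.4 CPM in constricted and 3.36 and 2.60 CPM in dilated dilator nuclei. Both dilated libraries were below the others, while constricted and untreated libraries overlapped. *Nrg4* fell by 1.47 on the log2 scale (SE 0.40, edgeR adjusted p = 0.0278). The adjusted p was 0.0565 without untreated replicate 1, 0.0873 without untreated replicate 2, 0.107 without dilated replicate 1 and 0.130 without dilated replicate 2. *Nrg4* lies on chromosome 9 (55220222 to 55326844, minus strand) and overlaps *Fbxo22* on the other strand.

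Markers of other cells moved in dilator muscle as well. Of the 3 pericyte markers 2 were tested and both fell with dilation. Their summed level, over all 3, was 11.2 to 11.4 CPM untreated, 6.20 to 7.16 CPM constricted and 2.20 to 4.25 CPM dilated, and *Rgs5* was at 0 in 2 constricted libraries. Of 2 sphincter 1 markers tested 1 fell, and their list was at 26.7 to 37.4 CPM untreated and 22.4 to 30.0 CPM dilated. Of 2 erythrocyte markers 1 rose, from a sum of 1.25 to 3.38 CPM untreated to 7.61 to 8.59 CPM dilated. The part of these cells in the changes of *Egfr*, *Hbegf* and *Nrg4* was not tested.

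In stroma 2, 1 of 21 members tested was called (4.76%), against 1.73% of all 12788 genes. *Egfr* was at 37.5, 43.5 and 46.4 CPM in untreated, 44.9, 71.0 and 33.5 CPM in constricted and 101 and 87.0 CPM in dilated libraries. Both dilated libraries lay above the others, with a log2 fold change of 1.16 (SE 0.25, edgeR adjusted p = 0.0388). The call was lost without any one of the untreated or dilated libraries: the adjusted p was 0.0937, 0.159 and 0.155 without untreated replicates 1, 2 and 3, and 0.136 and 0.0713 without dilated replicates 1 and 2. The log2 fold change then ranged from 1.08 to 1.23. The summed level of the 3 endothelial markers in stroma 2 was 132 to 151 CPM untreated, 92.6 to 214 CPM constricted and 458 to 685 CPM dilated, 2 of the 3 rose, and none was at 0. *Cldn5* was at 99.1 to 132 CPM untreated and 373 to 631 CPM dilated, and *Erg* at 4.25 to 7.51 and 23.4 to 58.5 CPM. *Pecam1* stayed within its untreated range (14.4 to 45.9 CPM untreated, 26.7 to 30.4 CPM dilated). The part of endothelial cells in the result was not tested.

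In sphincter 1, 1 of 8 members tested was called (12.5%), against 1.95% of all 7112 genes. *Erbb4* was at 183, 120 and 181 CPM in untreated, 125, 121 and 173 CPM in constricted and 273 and 325 CPM in dilated libraries. Both dilated libraries lay above the others, with a log2 fold change of 0.95 (SE 0.24, edgeR adjusted p = 0.0367), on 310 untreated and 241 dilated UMIs. The adjusted p was 0.0576 with DESeq2 and 0.160 without nuclei called doublets. It was 0.257 and 0.0976 without untreated replicates 2 and 3, and 0.0612 and 0.390 without dilated replicates 1 and 2. The summed level of the 3 iris PE markers in sphincter 1 was 1269 to 1631 CPM untreated, 1017 to 1613 CPM constricted and 2275 to 2364 CPM dilated. *Pax6* was the largest part, at 1118 to 1343 CPM untreated and 1991 to 2059 CPM dilated. *Zic1* was at 10.8 to 90.3 CPM untreated, 72.6 to 109 CPM constricted and 129 to 136 CPM dilated. *Otx1* stayed within its untreated range (140 to 201 CPM untreated, 155 to 169 CPM dilated). The study describes PAX6 and OTX in iris muscle as well, and ZIC1 only in the epithelia. The sum therefore does not mark iris PE alone. None of the 3 markers was at 0 and none was called, and the part of iris PE cells in the result was not tested. *Erbb4* lies on chromosome 1 (68032186 to 69108059, minus strand).

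**Figure D2:**
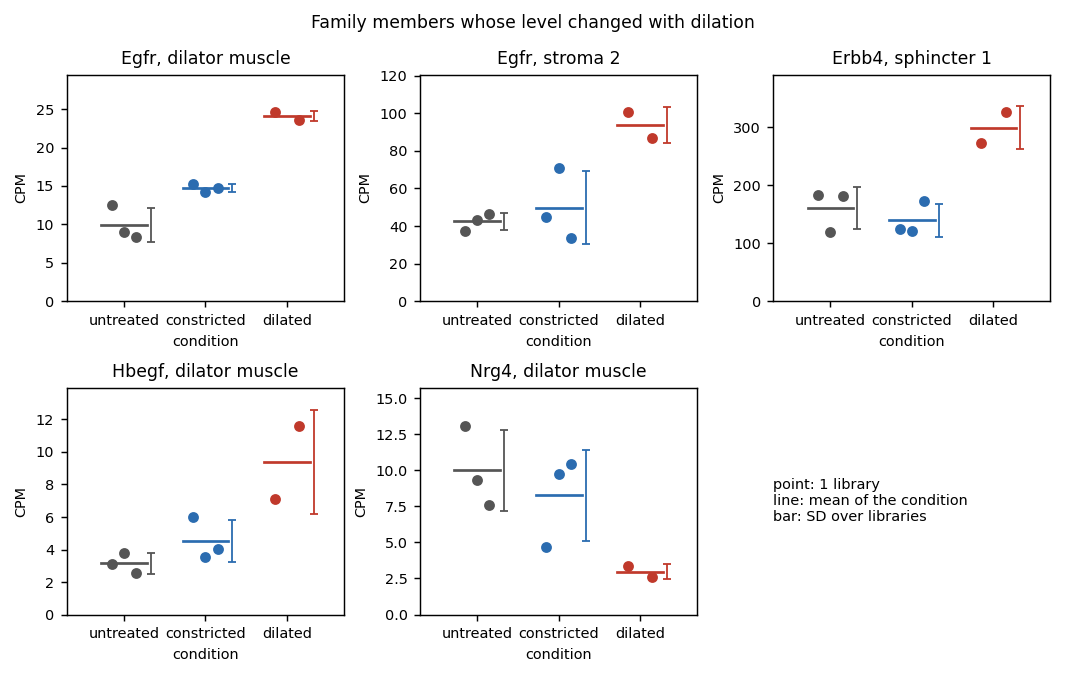
CPM in each library (points) for the 5 combinations of gene and cell type that changed with dilation, with the mean (line) and SD (bar) of 3 untreated, 3 constricted and 2 dilated libraries. In each panel both dilated libraries lie outside the range of the untreated and constricted libraries.

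The sequences just before the starts of 3 of these genes are shown because their levels changed with dilation. They are from RefSeq (GRCm38.p6), which held promoters for 26 of the 35 members, and each has 260 bases, 5′ to 3′ on the strand of the gene, with the first 10 transcribed bases in capitals. *Egfr* is at chr11:16751953-16752212 (plus strand), *Nrg4* at chr9:55283616-55283875 (minus strand) and *Erbb4* at chr1:69108050-69108309 (minus strand). The *Nrg4* stretch lies before a RefSeq start inside the gene as GENCODE annotates it, which starts at 55326844.
Egfr: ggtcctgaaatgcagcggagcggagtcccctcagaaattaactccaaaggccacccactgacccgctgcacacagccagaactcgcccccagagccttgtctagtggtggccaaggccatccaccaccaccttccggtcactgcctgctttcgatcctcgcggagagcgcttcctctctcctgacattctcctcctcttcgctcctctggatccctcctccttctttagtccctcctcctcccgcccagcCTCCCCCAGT
Nrg4: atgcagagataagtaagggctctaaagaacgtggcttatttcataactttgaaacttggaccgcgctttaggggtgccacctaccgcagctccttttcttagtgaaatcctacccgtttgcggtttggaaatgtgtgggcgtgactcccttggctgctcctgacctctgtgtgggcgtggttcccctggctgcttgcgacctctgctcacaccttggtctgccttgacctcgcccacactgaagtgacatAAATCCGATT
Erbb4: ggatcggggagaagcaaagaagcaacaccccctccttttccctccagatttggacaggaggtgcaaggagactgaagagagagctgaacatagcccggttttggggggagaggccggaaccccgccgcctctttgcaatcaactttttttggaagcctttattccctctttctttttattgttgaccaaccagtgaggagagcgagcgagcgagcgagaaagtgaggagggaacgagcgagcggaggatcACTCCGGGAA

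The promoters were searched on both strands, over 300 bases, for AP-1 (TGANTCA), CRE (TGACGTCA), EGR (GCGNGGGCG), GC box (GGGGCGGGG), the TATA box (TATAAA) and CArG sites, with overlaps kept. None of the 3 held any of the 6, and for *Nrg4* the stretch before the GENCODE start was not searched. Among all 32851 promoters AP-1 was found in 7.81%, EGR in 5.55%, CRE in 1.79%, the GC box in 11.4%, TATA in 13.6% and CArG in 1.63%. Of the 34 promoters of members, 2 held AP-1 (*Fgf12* and *Fgf13*), 3 EGR (*Fgf13*, *Fgf2* and *Fgfr3*) and 1 CRE (*Areg*).

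Some members came near the threshold. *Fgf12* in dilator muscle was at 399, 395 and 423 CPM in untreated, 412, 515 and 338 CPM in constricted and 243 and 230 CPM in dilated libraries. Both dilated libraries were the lowest, but the log2 fold change of -0.59 (SE 0.17, edgeR adjusted p = 0.0378) was just under the size required. It was called in 5 of 15 alternatives, by up to -0.78 with library totals. *Nrg1* in iris PE was at 117, 96.5 and 112 CPM in untreated, 146, 107 and 136 CPM in constricted and 187 and 162 CPM in dilated libraries (log2 fold change 0.73, SE 0.15, adjusted p = 0.0563), and it was called in 6 of 15 alternatives, among them DESeq2 (adjusted p = 0.00659) and both blocks. The *Nrg1* estimate was above 0 in 9 of 9 cell types tested, from 0.17 to 1.03, and none of the 9 was called. These cell types come from the same libraries and are not independent of each other. With constriction the *Nrg1* estimate was above 0 in 8 of the 9. *Erbb4* in stroma 1 was at 551, 439 and 586 CPM in untreated, 535, 491 and 287 CPM in constricted and 374 and 167 CPM in dilated libraries (log2 fold change -0.94, SE 0.26, adjusted p = 0.0837). That difference was called in 6 of 15 alternatives too, among them DESeq2 (adjusted p = 0.0384) and both blocks. It was -1.57 without dilated replicate 1 (edgeR adjusted p = 0.0173) and -0.52 without dilated replicate 2 (adjusted p = 0.531). Among the FGF receptors in dilator muscle, *Fgfr1* gave a log2 fold change of 0.36 (SE 0.14, adjusted p = 0.0960) and *Fgfr2* of 0.34 (SE 0.14, adjusted p = 0.114).

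Whether the response of a called member differed between cell types was tested in 20 comparisons in joint fits, chosen after the calls had been seen, of which that of *Egfr* between dilator muscle and stroma 2 stands in both orders. The *Egfr* response of dilator muscle was larger than that of CBE, by 1.58 on the log2 scale (SE 0.28, edgeR adjusted p = 1.39e-05), and than that of iris PE, by 1.00 (SE 0.21, adjusted p = 0.00181). Against stroma 2 the difference was 0.41 (SE 0.25, adjusted p = 0.406) and against CB 0.93 (SE 0.34, adjusted p = 0.140), and neither was resolved. Thus CBE, with the highest untreated *Egfr*, gave no detectable rise (112 and 93.6 CPM dilated, against 157, 88.9 and 123 CPM untreated).

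The *Erbb4* response of sphincter 1 was larger than that of dilator muscle by 1.53 (SE 0.23, edgeR adjusted p = 1.47e-07) and than that of stroma 1 by 2.02 (SE 0.28, adjusted p = 6.93e-07). In CB, *Erbb4* was at 364, 331 and 257 CPM untreated and 772 and 437 CPM dilated, and the difference from sphincter 1 was -0.02 (SE 0.32, adjusted p = 0.999). Sphincter 1 was not resolved from sphincter 2 (0.85, SE 0.50, adjusted p = 0.514), CBE (0.68, SE 0.28, adjusted p = 0.413) or stroma 2 (0.32, SE 0.37, adjusted p = 0.865) either. The *Nrg4* response of dilator muscle was not resolved from that of iris PE (-1.06, SE 0.36, edgeR adjusted p = 0.0549). For *Hbegf*, dilator muscle was not resolved from iris PE (0.89, SE 0.32, adjusted p = 0.0674) or stroma 2 (0.89, SE 0.51, adjusted p = 0.364). The *Hbegf* response of dilator muscle was larger than that of sphincter 1 by 3.83 (SE 0.71, adjusted p = 3.16e-05). In sphincter 1 *Hbegf* was at 16.1, 20.7 and 33.4 CPM untreated and 2.73 and 9.23 CPM dilated, on 53 and 5 UMIs (log2 fold change -1.99, SE 0.69, adjusted p = 0.191).

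**Figure D3:**
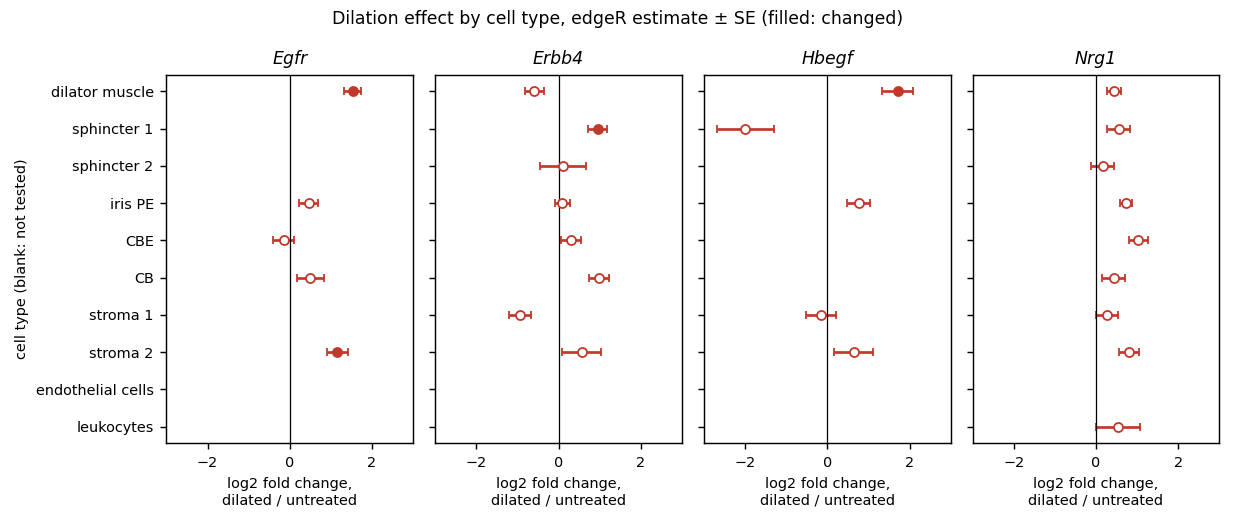
Log2 fold change of dilated against untreated (x axis, edgeR estimate ± SE, 3 untreated and 2 dilated libraries) of *Egfr*, *Erbb4*, *Hbegf* and *Nrg1* in each cell type where the gene was tested, with filled points for the calls. *Erbb4* lies at 0.95 in sphincter 1 and -0.94 in stroma 1. All 9 points of *Nrg1* lie above 0, and they come from the same libraries and are not independent.

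The genes around the receptors were read from lists of the pathway. These lists were drawn up with earlier results of these data known, and the study itself had reported *Egr1* as strongly induced in dilated dilator muscle. Their counts are therefore no independent support. Of 21 targets and feedback regulators of receptor signalling tested in dilator muscle, 11 rose and 2 fell with dilation, and the median log2 fold change was 1.52, against 0.02 for all genes. Of all genes tested there 7.2% rose and 6.14% fell. Among the 11, *Dusp5*, *Myc*, *Dusp6*, *Etv5* and *Spred3* had untreated means of 0.21 to 0.69 CPM and dilated means of 2.84 to 12.1 CPM. Genes so low untreated could pass the filter on low counts through their dilated libraries. The count of 11 and the median are therefore not free of the filter. The largest estimates were those of *Egr1*, *Fos* and *Dusp5*, of which *Egr1* and *Fos* are early-response genes that many other signals induce. *Egr1* was at 12.5, 2.67 and 2.21 CPM in untreated and 83.9 and 255 CPM in dilated libraries (log2 fold change 5.65, SE 0.60, edgeR adjusted p = 9.83e-05). *Fos* was at 9.35, 1.83 and 1.11 CPM in untreated and 14.7 and 180 CPM in dilated libraries (log2 fold change 5.47, SE 0.96, adjusted p = 0.00249). Both dilated libraries were above the untreated ones for either gene but lay far apart. Without dilated replicate 2, *Egr1* was at 4.49 (adjusted p = 0.000233) and *Fos* at 2.49 on the log2 scale, where its call was lost (adjusted p = 0.0502). Without dilated replicate 1 they were at 6.29 and 6.39, and without untreated replicate 1 at 6.28 and 6.21. *Dusp5*, a phosphatase of ERK, had 1 UMI in the 3 untreated libraries, which leaves 2 of them at 0, and 21 and 18 UMIs in the dilated ones (edgeR adjusted p = 0.00496). The ratio of the pooled levels was 38.8 with an exact 95% counting interval of 6.56 to 1570.

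The same list gave 1 gene that rose of 21 tested in stroma 2, where 1.35% of all genes did. This was *Errfi1*, an inhibitor of EGFR, at 73.7, 37.8 and 38.2 CPM in untreated and 139 and 430 CPM in dilated libraries (log2 fold change 2.66, SE 0.40, edgeR adjusted p = 0.00777). The estimate was 1.57 without dilated replicate 2 and 3.31 without dilated replicate 1, and the call was lost without untreated replicate 2 or 3 (adjusted p = 0.0577 and 0.0663). Of the list, 2 of 12 genes tested in stroma 1, 2 of 17 in iris PE and 1 of 10 in CB also rose, 1 of 6 in sphincter 2 fell, and none was called of 9 in sphincter 1, 10 in CBE, 5 in leukocytes and 1 in endothelial cells. Of all genes 0.786% rose in stroma 1, 0.453% in iris PE and 0.0665% in CB, and 1.4% fell in sphincter 2.

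The other lists showed fewer changes, with medians in dilator muscle of -0.14 for FGF co-receptors and binding proteins, 0.20 for ligand release, 0.02 for the Ras-ERK cascade, 0.03 for heparan sulfate synthesis and -0.37 for sodium channel subunits (log2 fold change). Of 16 FGF co-receptors and binding proteins tested in dilator muscle, 2 rose and 3 fell, where 7.2% of all genes rose and 6.14% fell. The heparan sulfate core proteins *Sdc1* (9.01 ± 1.45 to 16.9 ± 2.50 CPM) and *Sdc4* (50.3 ± 18.0 to 88.6 ± 21.0 CPM) rose and *Flrt3* fell (48.5 ± 1.34 to 24.8 ± 1.85 CPM), and *Sdc4* also rose in stroma 2 (59.2 ± 24.2 to 146 ± 12.7 CPM). Of 12 genes of ligand release, *Rhbdf1*, which assists the sheddase ADAM17, rose (10.7 ± 3.14 to 17.2 ± 4.53 CPM), and the sheddase *Adam10* fell (646 ± 35.0 to 338 ± 15.2 CPM). In stroma 2 *Timp3*, an inhibitor of such proteases, rose (72.5 ± 14.9 to 234 ± 37.4 CPM). Of 25 adaptors and members of the Ras-ERK cascade, *Gab2* rose (171 ± 30.4 to 329 ± 53.1 CPM) and *Ksr1* fell (134 ± 16.8 to 76.7 ± 3.91 CPM). Of 15 genes of heparan sulfate synthesis and editing, 2 rose and 4 fell, with the largest changes for *Ndst4* (29.7 ± 3.20 to 7.14 ± 3.58 CPM), *Glce* (26.3 ± 1.36 to 58.4 ± 11.5 CPM) and *Hs3st1* (68.8 ± 15.9 to 25.7 ± 1.14 CPM). *Sulf1*, which trims heparan sulfate outside the cell, fell in sphincter 1 (838 ± 187 to 324 ± 132 CPM). Of 5 sodium channel subunits, *Scn2a* fell (23.3 ± 4.01 to 9.70 ± 0.734 CPM). In cell types without a member called, 1 of 12 genes of ligand release tested rose in iris PE and 1 of 11 in stroma 1. Of heparan sulfate synthesis 1 of 9 rose in sphincter 2 and 1 of 15 fell in iris PE. Of all genes 0.453% rose in iris PE, 0.786% in stroma 1 and 1.46% in sphincter 2, and 0.142% fell in iris PE. The gene in sphincter 2 was *Sulf1* (128 ± 49.3 to 271 ± 98.8 CPM, log2 fold change 0.98, SE 0.26, edgeR adjusted p = 0.0339). It thus moved in opposite directions in sphincter 1 and sphincter 2, and that difference was not tested. Apart from *Sulf1* in sphincter 2, 18 calls of list genes are named here and above. Of these, 8 held in all 15 alternatives: *Adam10*, *Timp3*, *Gab2*, *Egr1*, *Dusp5*, *Ndst4*, *Glce* and *Hs3st1*. The other 10 were lost in 1 to 5 of them, all with an untreated or dilated library left out except that *Rhbdf1* was lost with library totals as well.

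With constriction, none of the 123 member tests was called by edgeR or by DESeq2, against 0.0118% of all 85092 gene tests. An unadjusted p under 0.05 was found in 15 of the 123 tests with edgeR and in 10 with DESeq2, and the share of all genes is not given here. *Fgf13*, an intracellular FGF, gave 6 of the 15. Its estimate was 0.47 to 1.11 in 5 cell types (dilator muscle, sphincter 1, sphincter 2, iris PE and CBE) and -0.98 in leukocytes, with adjusted p from 0.335 to 1.00. In iris PE *Fgf13* was at 140, 133 and 128 CPM in untreated and 146, 501 and 220 CPM in constricted libraries, with constricted replicate 2 far above the others. In leukocytes it was at 298, 250 and 229 CPM in untreated, 129, 88.7 and 146 CPM in constricted and 365 and 436 CPM in dilated libraries, and the 3 conditions did not overlap. The constricted leukocyte values rest on 32 UMIs.

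**Figure D4:**
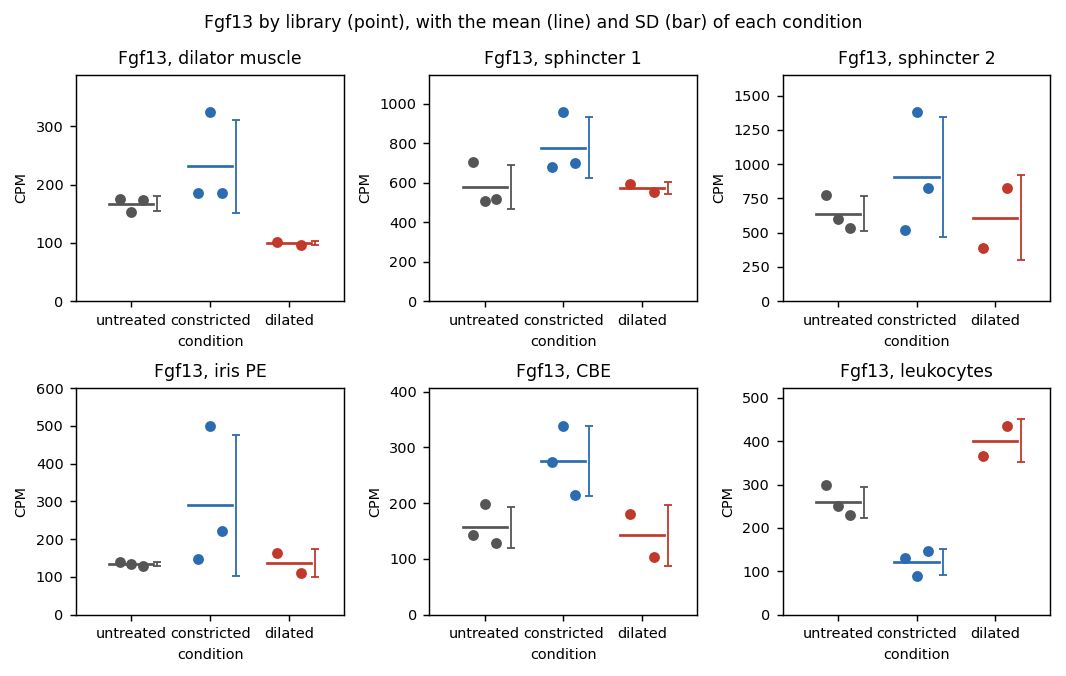
*Fgf13* in CPM (y axis) for each library (points) of the 3 conditions in 6 cell types, with the mean (line) and SD (bar). Constricted replicate 2 is the highest of the 8 libraries in all panels but leukocytes, where the constricted libraries are the lowest.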

How the data were processed

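The authors prepared 10x Genomics Chromium v3 libraries from iris nuclei, counted UMIs of exons and introns with Cell Ranger 3.1.0 on mm10, removed nuclei with >1% mitochondrial transcripts or outside 500 to 6000 transcripts, and assigned cell types with Seurat. The deposited matrices hold raw UMI counts per gene and nucleus. Whether counting used strand is not given in the sources used here. The deposited barcodes number 34357 nuclei in all.

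From these, the counts of all nuclei of a cell type in a library were added up. Each cell type had its own fit of the 8 libraries in 3 groups with edgeR 4.0.16 in R 4.3.3 (TMM factors, filterByExpr, two-sided quasi-likelihood test). P-values were adjusted by Benjamini-Hochberg over all genes of the fit, and the fit was tested on simulated data. In dilator muscle 54.0% of the 2054 genes called with dilation were higher. With library totals in place of TMM, 32.2% of 2258 were, and the median log2 fold change of all genes there was -0.16 instead of 0.02. Differences between cell types were not tested, as the clusters come from the same counts. Differences of the response used the interaction of cell type and condition, with a term per library. Doublets were called by Scrublet (scanpy 1.11.5), which marked 359 nuclei (1.04%), and were left out in an alternative. DESeq2 1.42.0 was an alternative as well, as were no filter, a block for replicate number or library series, and each library left out. Positions are from GENCODE vM21. Python 3.11.15 and matplotlib 3.10.9 were used.

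Named with values were all receptors, each member called, ligands at 20 CPM or more untreated in a cell type and, from each list, the 3 largest changes among the genes called in a cell type in which a member was called. *Areg*, other weak ligands, members near the threshold and *Fgf13* after constriction were chosen after their values were seen. The members, lists and comparisons were chosen with earlier results of these data known.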

Additional observations from a re-analysis of the deposited data

Results flagged for a closer look

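For 3 members the log2 response to dilation differed between cell types in a joint edgeR fit with a term per library, among 20 comparisons chosen after the calls were seen. For *Egfr*, dilator muscle exceeded iris PE by 1.00 and CBE by 1.58, and stroma 2 exceeded CBE by 1.26. For *Hbegf*, dilator muscle exceeded sphincter 1 by 3.83 and stroma 1 by 1.90. For *Erbb4*, sphincter 1 exceeded dilator muscle by 1.53, iris PE by 0.85 and stroma 1 by 2.02. The edgeR adjusted p-values ranged from 1.47e-07 to 0.0324.

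With 1 library left out at a time, 5 of these 8 differences kept their side of the threshold, with values that moved. *Erbb4* of sphincter 1 exceeded dilator muscle by 2.18 without dilated replicate 1 and by 0.98 without dilated replicate 2, and stroma 1 by 2.67 and 1.33. *Hbegf* of dilator muscle exceeded sphincter 1 by 3.14 without untreated replicate 3 and by 4.54 without dilated replicate 2. *Egfr* of dilator muscle exceeded iris PE by 0.81 to 1.29 and CBE by 1.39 to 1.81. *Hbegf* of dilator muscle against stroma 1 was 1.54 without untreated replicate 3 (edgeR adjusted p = 0.150) and 1.64 without dilated replicate 2 (adjusted p = 0.140). *Egfr* of stroma 2 against CBE was 1.28 without untreated replicate 3 (adjusted p = 0.0893) and 1.34 without dilated replicate 1 (adjusted p = 0.120). *Erbb4* of sphincter 1 against iris PE was 0.69, 1.08 and 0.47 without untreated replicates 2 and 3 and dilated replicate 2 (adjusted p = 0.295, 0.0714 and 0.790), and 0.65 without nuclei called doublets (adjusted p = 0.198). Their causes were not tested.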

How the results depend on the processing

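The count of 5 member tests called with dilation was 6 with DESeq2 (4 of the 5 among them), 7 with library totals (5), 5 without doublets (4) and 5 without nuclei with shared barcodes (5, chosen after seeing the data). It was 12 with no filter on low counts and 16 with a block for the library series, which held the 5 in both cases, and 1 to 7 with each library left out, with 2 without untreated replicate 2, 2 without untreated replicate 3 and 1, *Egfr* in dilator muscle, without dilated replicate 2, where 1 dilated library is assumed to vary like the other groups. With the replicate block it was 11, and the numbers 1 to 3 in the labels are not stated to pair libraries: in dilator muscle the deviations of the 7 same-numbered pairs correlated with -0.03 to 0.45, 2 of them below 0, and those of the 14 other pairs with -0.45 to 0.45, 9 below 0. The count of 0 with constriction was 0 in all alternatives but no filter, where it was 1 (*Fgf13* in iris PE, log2 fold change 1.10, edgeR adjusted p = 0.0313). The share of all genes called in these alternatives is not given here, so the counts do not show a change particular to the members. No result reversed its direction. The cell type with the highest level was kept for 14 to 18 of the 19 receptors and ligands named by level with an untreated library left out, for 17 without doublets, 15 over all 8 libraries and 18 with pooled UMIs. In dilator muscle the level of *Fgfr1* per kb exceeded that of *Fgf11* by 1.62 on the log2 scale on gene body length and by 3.34 on exon length. Depth limits the rare cell types: 3 counts are 7.82 CPM in untreated endothelial cells and 0.20 CPM in dilator muscle. In all but the tests named, the cause of a changed call was not tested.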
